A study of Mus musculus with 23 samples.

Results

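The comparison set 4 KHR-N+/- tumours against 5 KR-N+/- tumours, 9 of the 23 mouse oral tumours in the series. They were chosen by their group labels alone, with no measured value. KHR and KR are names of tumour types that the labels do not spell out, and both groups are labelled as carrying 1 copy of Notch1. The question was what separates the tumour types at that labelled copy number. All tumours came from C57BL/6 mice, had grown for 21 days, and were read on 1 Illumina MouseRef-8 v2 bead array each. The labels number biological replicates within a group, without naming the animal behind each tumour or how a tumour was started. P-values therefore measure the spread between tumours within groups, pooled over all 23 arrays of the series. That spread may be partly technical. The other groups used here were KHR-N-/- (n = 5) and KR-N-/- (n = 4), with no Notch1 copy, and KHR (n = 5), with Notch1 intact. The means by which Notch1 was removed is not stated in these sources.

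Oral epithelium renews itself from a basal layer of dividing keratinocytes, and its cells stop dividing and make cornified proteins as they move up. Entry into the cell cycle is gated by cyclin D and cyclin E kinases, by their inhibitors, and by the retinoblastoma proteins, which hold E2F factors in check. E2F factors switch on genes for DNA replication, and a second wave of genes then drives mitosis. Notch1 is a receptor that promotes the exit of keratinocytes from division in skin and mouth. Tumours under the mouth lining grow next to striated muscle, so bulk tumour RNA can hold muscle transcripts.

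Levels below are log2 intensities after background correction and quantile normalisation, for the brightest detected probe of each gene. A difference is the KHR-N+/- mean minus the KR-N+/- mean on that log2 scale, so 1 stands for a doubling. An offset of 16 intensity units was added before the log, which makes the differences of dim genes smaller than they are. Of 9732 genes tested, 542 passed limma's test at a Benjamini-Hochberg adjusted p under 0.05, which is 5.57% of them. In KHR-N+/- tumours 311 genes were higher (3.20%) and 231 were lower (2.37%). The difference was at least 1 for 47 of the higher and 29 of the lower genes. The levels of the 2 groups did not overlap at all for 915 genes, or 9.40%, and 430 of these were among the 542. Array scaling moves this split. Scaling each array to its median over all probes shifted the median difference of all genes by 0.647 and gave 4534 genes higher and 16 lower, and scaling to the median of probes detected on every array shifted it by -0.286 and gave 345 higher and 3003 lower. Directions below are therefore relative to the bulk of the genes, whose median difference was 0.00509.

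Several features of the arrays differed between the groups and bear on what follows. The mean array intensity was 282.9 to 366.4 in KHR-N+/- tumours, against 142.4 to 360.4 in KR-N+/- tumours, where replicate 2 alone was above 224.7. Between 12133 and 12627 probes were detected on the KHR-N+/- arrays, against 10353 to 12415 on the KR-N+/- arrays. The keratins of basal keratinocytes were abundant on all 9 arrays, with Krt5 at 12.01 to 12.46 in KHR-N+/- tumours and 12.05 to 12.75 in KR-N+/- tumours. The correlation between 2 arrays of one group was 0.976 to 0.993, and between arrays of opposite groups 0.966 to 0.988. Xist, the RNA of the silent X chromosome, was at 5.36, 5.14, 4.26 and 5.19 in KHR-N+/- replicates 1 to 4, against 4.47, 4.26, 4.60, 4.22 and 5.18 in KR-N+/- replicates 1 to 5. High values were thus 3 of 4 in the KHR-N+/- group and 1 of 5 in the KR-N+/- group, and with the Xist level as a covariate 457 genes passed.

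Notch1 itself was measured first, since both groups are labelled with 1 copy. Its level was 6.60, 7.52, 5.68 and 7.40 in KHR-N+/- replicates 1 to 4, against 7.87, 7.60, 8.13, 7.44 and 7.57 in KR-N+/- replicates 1 to 5. Replicate 3 of KHR-N+/- lay inside the range of the KHR-N-/- tumours, 5.40 to 5.80, and replicate 1 lay just above the KR-N-/- range of 5.61 to 6.52. KHR tumours with intact Notch1 ran from 7.81 to 8.67. Whether the probe lies in the deleted part of the gene is not known. The difference was -0.92 ± 0.27 (SE), with a limma adjusted p of 0.0465, and the groups overlapped. Without the array labelled KHR-N+/- replicate 3 it was -0.55 and did not pass, and without any 1 of 5 other arrays it did not pass either, so its call rests on single arrays. It passed under 3 of 14 other settings, and the difference was -0.01 under median scaling. Without replicate 3, 307 genes passed in all. Of 20 measured Notch receptors, ligands and modulators, Notch1 was the only member that passed, and the list's median was -0.08. That is 5% of the list, against 2.37% downward over all genes. None of the 7 measured Notch target genes passed, against 5.57% of all genes, with a median of -0.14. The target Hes1, a repressor switched on by Notch, was at 7.10 to 7.26 in KHR-N+/- tumours and 7.22 to 7.71 in KR-N+/- tumours, a difference of -0.34 (adjusted p = 0.371) that turned to 0.60 under median scaling.

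The largest differences upward were in genes known from meiosis. Stag3, a cohesin subunit of meiotic chromosomes, was at 6.71, 7.46, 7.56 and 7.70 in the KHR-N+/- tumours, against 4.33, 4.44, 4.41, 4.20 and 4.22 in the KR-N+/- tumours. Every KHR-N+/- tumour was thus more than 2 log2 units above every KR-N+/- tumour, and the probe was detected on 4 of 4 KHR-N+/- arrays and 1 of 5 KR-N+/- arrays. The difference was 3.04 ± 0.17 (SE, adjusted p = 6.74e-11). Since most KR-N+/- arrays read background, its size depends on the background handling, with 1.41 without background correction and 6.06 on the authors' processed values. Zcwpw1, which reads histone methylation at meiotic break sites in mice, was at 6.28, 7.0, 7.06 and 6.69 in KHR-N+/- tumours, against 4.53, 4.60, 4.23, 4.25 and 4.37 in KR-N+/- tumours. Its groups did not overlap either, with a difference of 2.36 ± 0.15 (SE, adjusted p = 2.28e-10), or 0.99 and 4.99 under those settings. Of 29 genes of the meiosis and germline list on the array, only 10 passed the filter of detection on 4 or more arrays. A gene detected on no KR-N+/- array passes that filter only through the other groups, so the filter favours rises among such genes. Of the 10, 3 passed upward and none downward, against 3.20% upward over all genes, and the list's median was 0.14. Smc1b, another meiotic cohesin subunit, and Piwil2, a germline Piwi protein, were its other calls beside Stag3, and neither was detected on any KR-N+/- array. Smc1b was at 5.03 ± 0.42 in KHR-N+/- and 4.24 ± 0.09 in KR-N+/- tumours (SD, n = 4 and 5), at least 1.39-fold higher (adjusted p = 0.000908). Piwil2 was at 5.28 ± 0.28 in KHR-N+/- and 4.31 ± 0.10 in KR-N+/- tumours (SD), at least 1.65-fold higher (adjusted p = 0.00402). These bounds set the KHR-N+/- mean against the lowest detected signal of each KR-N+/- array, or the probe's own value where that was higher. Stag3 and Zcwpw1 lie on chromosome 5 with 33 RefSeq genes of assembly GRCm38.p6 between them. Of the 13 of those genes that were tested, none passed, and their differences ran from -0.36 to 0.27.

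**Figure D1:**
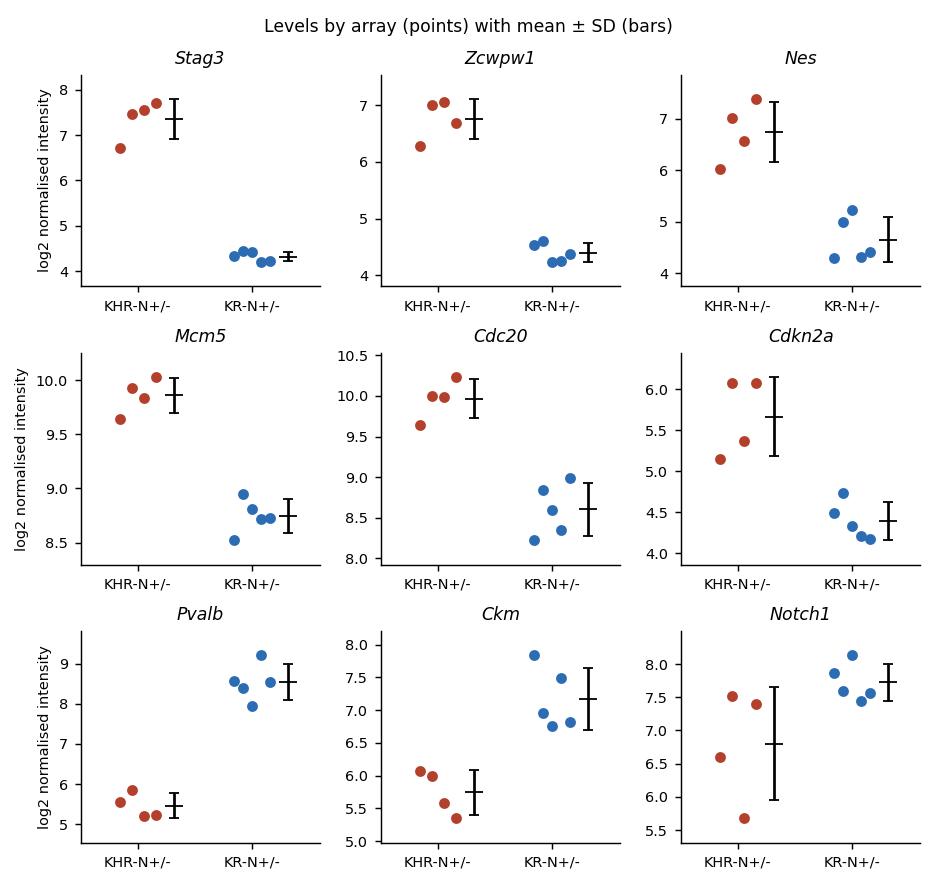
Log2 normalised intensity of 9 genes in each tumour, with KHR-N+/- (red, n = 4) left of KR-N+/- (blue, n = 5) and bars for mean ± SD. Stag3, Zcwpw1, Nes, Mcm5, Cdc20 and Cdkn2a sit higher in all KHR-N+/- tumours, Pvalb and Ckm sit lower in all of them, and only the Notch1 levels overlap.

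Genes of DNA replication were higher in KHR-N+/- tumours as a group. Of 32 measured genes of DNA replication and the G1/S transition, 20 passed upward and none downward, against 3.20% upward over all genes, and the list's median difference was 0.67. The mean level of the list was 7.02, 7.31, 7.21 and 7.46 in the KHR-N+/- tumours, against 6.45, 6.79, 6.70, 6.60 and 6.70 in the KR-N+/- tumours. No KHR-N+/- tumour fell within the KR-N+/- range, and KHR-N+/- replicate 1 was the lowest of its group. Mcm5, a subunit of the replicative helicase, was at 9.64, 9.92, 9.84 and 10.03 in KHR-N+/- tumours, against 8.52, 8.95, 8.81, 8.72 and 8.73 in KR-N+/- tumours. Its difference of 1.11 ± 0.11 (SE, adjusted p = 2.25e-06) left the groups well apart. Ccne1, which encodes cyclin E1, was at 6.04 ± 0.06 in KHR-N+/- and 5.13 ± 0.21 in KR-N+/- tumours (SD, n = 4 and 5), a difference of 0.92. The nucleotide-supplying enzymes Rrm1, of ribonucleotide reductase, and Tyms, thymidylate synthase, differed by 0.94 and 1.17. The other probes of Tyms gave 0.84 and 0.15. Lig1, the ligase of lagging-strand synthesis, differed by 1.05 at its brightest probe and by 0.06, 0.59 and 0.65 at its other three, so its probes disagree on the size. Outside the list, the GINS subunit Gins4 was higher by 0.85 ± 0.10, the mismatch repair gene Msh6 by 0.75 ± 0.08, and Hat1, which acetylates newly made histones, by 1.06 ± 0.11 (SE; adjusted p = 1.70e-05, 8.86e-06 and 2.25e-06). Fam111a, a protease that acts at replication forks, was at 7.99 ± 0.20 in KHR-N+/- and 6.48 ± 0.41 in KR-N+/- tumours (SD), a difference of 1.51.

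Mitotic genes were higher by a similar amount. Of 19 measured genes of mitosis and G2/M, 14 passed upward (73.7%) and none downward, against 3.20% upward over all genes. These 19 genes had a median of 0.84. Their mean level was 6.88, 7.43, 7.33 and 7.69 in the KHR-N+/- tumours, against 6.30, 6.78, 6.51, 6.37 and 6.59 in the KR-N+/- tumours. KHR-N+/- replicate 1 stood lowest, just above the highest KR-N+/- tumour, and replicate 4 stood highest. Cdc20, the activator of the anaphase-promoting complex, was at 9.65, 10.00, 9.99 and 10.23 in KHR-N+/- tumours, against 8.22, 8.84, 8.59, 8.35 and 8.99 in KR-N+/- tumours. Its difference of 1.37 ± 0.14 (SE, adjusted p = 2.25e-06) was matched by 1.21, 1.22 and 1.65 at its other probes. Top2a, the topoisomerase that untangles sister chromatids, differed by 1.19, the spindle protein Nusap1 by 1.21, the kinetochore gene Ndc80 by 0.89, and Cdk1, the kinase that starts mitosis, by 1.03. The chromosome kinesin Kif4, outside the list, was higher by 1.13 ± 0.13 (SE, adjusted p = 8.86e-06). The remaining mitotic genes that passed ran from 0.53 for Foxm1, a transcription factor of mitotic genes, to 1.02 for Prc1, a crosslinker of the spindle midzone. Without the array labelled KHR-N+/- replicate 3, 17 replication genes and 12 mitotic genes passed.

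**Figure D2:**
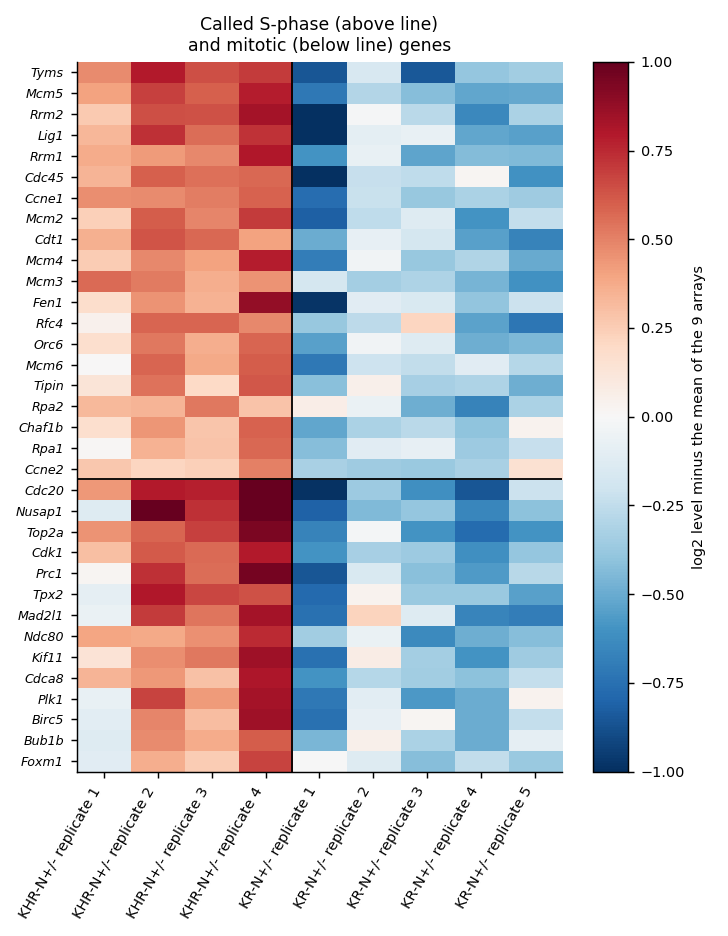
Log2 level of each replication gene (above the line) and mitotic gene (below it) that passed, minus its mean over the 9 arrays, with KHR-N+/- arrays left of KR-N+/- arrays. Red marks values above the mean, and colours stop at 1 log2 unit either way; KHR-N+/- replicate 1 is paler than the other KHR-N+/- arrays in the mitotic genes, and KR-N+/- replicate 1 is the bluest array.

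The promoters of these genes were read for the letters that E2F factors and the mitotic repressor complexes are known to use. The windows are RefSeq sequences of GRCm38.p6 from 250 bases before to 50 bases after a gene's start, present for 7888 of the 9732 genes tested. The E2F motif was searched as TTTGGCGC or TTTCGCGC and the CHR motif, the cell cycle homology region of mitotic promoters, as TTTGAA, both on either strand. An E2F match was found in 1.74% of tested genes with a window and in 0.929% of all 27025 genes in the table. It was found in 8 of 29 measured replication genes (27.6%) and in 1 of 17 mitotic genes (5.88%). A CHR match was found in 14.4% of tested genes and 20.2% of all genes in the table, against 13 of 17 mitotic genes (76.5%) and 4 of 29 replication genes (13.8%). Among genes higher in KHR-N+/- tumours 13 of 261 held the E2F motif (4.98%) and 53 the CHR motif (20.3%), and among genes lower in them 0 of 186 and 30 (16.1%) did. The shares of the replication and mitotic lists count every measured member, passed or not, so they describe the lists and not the comparison. All these shares are descriptions of letters, not of binding. The 5 windows below show Mcm5 as a replication promoter, Cdk1 with both motifs, Cdc20 and Top2a as mitotic promoters, and Stag3 as the gene with the largest rise. Capitals mark E2F matches in Mcm5 (2 overlapping matches, starting at bases 98 and 102) and Cdk1 (base 120), and CHR matches in Cdk1 (bases 180 and 236), Cdc20 (base 233) and Top2a (bases 72 and 228). Stag3 holds neither motif in this window. Positions count from the first printed base, 5′ to 3′ along the gene.
Mcm5 chr8:75109259-75109558, plus strand: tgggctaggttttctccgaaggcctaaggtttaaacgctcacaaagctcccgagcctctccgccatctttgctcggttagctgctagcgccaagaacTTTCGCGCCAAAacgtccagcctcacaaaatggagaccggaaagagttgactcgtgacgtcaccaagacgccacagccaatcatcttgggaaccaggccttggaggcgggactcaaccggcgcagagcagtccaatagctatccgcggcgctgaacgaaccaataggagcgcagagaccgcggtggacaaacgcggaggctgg
Cdk1 chr10:69352863-69353162, minus strand: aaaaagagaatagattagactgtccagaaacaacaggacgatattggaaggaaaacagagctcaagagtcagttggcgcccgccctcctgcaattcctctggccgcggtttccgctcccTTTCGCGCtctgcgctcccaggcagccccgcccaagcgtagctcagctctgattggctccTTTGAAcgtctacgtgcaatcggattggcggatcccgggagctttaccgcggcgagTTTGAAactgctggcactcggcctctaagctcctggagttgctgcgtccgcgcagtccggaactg
Cdc20 chr4:118437294-118437593, minus strand: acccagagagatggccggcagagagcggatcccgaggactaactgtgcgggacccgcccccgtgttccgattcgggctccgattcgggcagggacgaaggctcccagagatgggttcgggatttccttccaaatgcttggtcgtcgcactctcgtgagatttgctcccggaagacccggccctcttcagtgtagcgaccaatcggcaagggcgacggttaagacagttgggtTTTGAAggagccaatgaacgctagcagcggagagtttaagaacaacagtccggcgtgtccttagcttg
Top2a chr11:99024140-99024439, minus strand: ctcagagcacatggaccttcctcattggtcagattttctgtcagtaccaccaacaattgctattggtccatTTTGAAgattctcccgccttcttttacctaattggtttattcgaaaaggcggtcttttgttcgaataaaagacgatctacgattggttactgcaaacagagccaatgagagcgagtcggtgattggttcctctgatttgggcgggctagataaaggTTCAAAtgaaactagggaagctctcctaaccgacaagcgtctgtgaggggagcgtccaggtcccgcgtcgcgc
Stag3 chr5:138280259-138280558, plus strand: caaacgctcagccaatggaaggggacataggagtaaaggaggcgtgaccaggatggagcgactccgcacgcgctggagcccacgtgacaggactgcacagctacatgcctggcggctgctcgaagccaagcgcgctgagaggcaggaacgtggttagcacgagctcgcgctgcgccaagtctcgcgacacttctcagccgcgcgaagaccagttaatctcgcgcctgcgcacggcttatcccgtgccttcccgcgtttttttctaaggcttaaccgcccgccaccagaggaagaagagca

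Regulators of the G1 gate were split. Of 14 measured CDK inhibitors, retinoblastoma family genes and D cyclins, 6 passed upward and 2 downward, with a median of 0.22. These shares were 42.9% and 14.3%, against 3.20% and 2.37% over all genes. Cdkn2a, whose locus encodes the Ink4a inhibitor and Arf, was at 5.15, 6.08, 5.38 and 6.08 in KHR-N+/- tumours, against 4.49, 4.74, 4.33, 4.21 and 4.18 in KR-N+/- tumours, where its probe was detected on 1 of 5 arrays. The groups did not overlap, and the difference was 1.28 ± 0.25 (SE, adjusted p = 0.00281), with 0.79 at a second probe. Its neighbour Cdkn2b, which encodes Ink4b, went the other way. It was at 7.51, 7.85, 8.19 and 7.80 in KHR-N+/- tumours, against 8.95, 8.72, 8.49, 8.51 and 8.16 in KR-N+/- tumours, with replicate 3 of KHR-N+/- just above replicate 5 of KR-N+/-. The difference of -0.73 (adjusted p = 0.00778) became 0.27 under median scaling. Cdkn2c, for Ink4c, was higher by 0.64, and Cdkn1a, the Cip1 inhibitor that p53 switches on, was at 10.67, 10.38, 10.32 and 10.36 in KHR-N+/- tumours, against 9.58, 9.80, 9.68, 9.60 and 9.76 in KR-N+/- tumours, a difference of 0.75 between groups that did not overlap. Cdkn1c, for the Kip2 inhibitor, was higher by 0.79, with KHR-N+/- replicate 1 inside the KR-N+/- range, and did not pass without KHR-N+/- replicate 2 or 3. Ccnd2, for cyclin D2, was lower by 1.14 on average, at 7.47, 8.48, 8.02 and 9.03 in KHR-N+/- tumours and 9.27 to 9.49 in KR-N+/- tumours, and lost its call without KHR-N+/- replicate 1 or 3 or KR-N+/- replicate 1 or 4. Of 25 p53 target genes, 2 passed upward and 2 downward, 8% each against 3.20% and 2.37% over all genes, with a median of -0.01. Beside Cdkn1a, the bypass polymerase Polk was higher by 0.46. Sesn1, a stress-induced sestrin, was lower with a difference of -0.94, and the death receptor Tnfrsf10b with -0.78, but these 2 turned to 0.07 and 0.12 under median scaling and to -0.29 and 0.04 at their second probes. Polk did not pass without KHR-N+/- replicate 2, 3 or 4 or KR-N+/- replicate 1, 3 or 5, and Tnfrsf10b passed only without KHR-N+/- replicate 2 or KR-N+/- replicate 2.

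Skeletal muscle genes were lower in KHR-N+/- tumours, with the highest share of falls among the 41 measured lists. Of 24 measured, 15 passed downward and none upward, against 2.37% downward over all genes, and the median difference was -0.83. All 24 had a negative difference, from -3.07 to -0.01. In bulk tissue, fewer muscle cells and less RNA per muscle cell cannot be told apart. The mean level of the list was 6.72, 7.03, 6.73 and 6.61 in KHR-N+/- tumours, against 7.97, 7.40, 7.45, 8.06 and 7.45 in KR-N+/- tumours, so the groups did not overlap. Pvalb, the calcium buffer of fast-twitch fibres, was at 5.55, 5.86, 5.21 and 5.23 in KHR-N+/- tumours, against 8.56, 8.40, 7.96, 9.20 and 8.54 in KR-N+/- tumours. Its difference of -3.07 ± 0.29 (SE, adjusted p = 5.20e-07) was the largest of the list, and the next was that of Ckm, muscle creatine kinase. Ckm was at 6.07, 5.99, 5.58 and 5.35 in KHR-N+/- tumours, against 7.84, 6.96, 6.76, 7.49 and 6.82 in KR-N+/- tumours, a difference of -1.42 ± 0.23. Myoglobin (Mb), the fast light chain Mylpf, the troponin Tnni2 and the muscle enolase Eno3 differed by -1.13, -1.22, -1.06 and -1.07. The fast myosin Myh4 was detected on 1 of 4 KHR-N+/- arrays and 5 of 5 KR-N+/- arrays, with a difference of -1.26 that did not pass without KHR-N+/- replicate 1, 3 or 4 or KR-N+/- replicate 1 or 4. Outside the list, 3 muscle-type genes were among the 15 largest falls: Cox8b (-1.55) and Cox7a1 (-1.38), muscle forms of cytochrome oxidase subunits, and Rpl3l (-1.30), the muscle form of a ribosomal protein. Without KHR-N+/- replicate 1, 3 or 4, or without KR-N+/- replicate 4, 9 muscle genes passed in place of 15. With the mean array intensity as a covariate 2 passed downward, with a median of -0.58, and under median scaling 3 did, with a median of -0.73 relative to all genes.

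The muscle level moved with the comparison, so each count was also taken with it as a covariate. This level is the mean of the skeletal muscle list, which holds Pvalb. Members of the list are thus adjusted partly for themselves, and their values under this setting are no independent check. Over all genes 21 passed with this covariate, of which 17 were among the 542 with the same direction. Among the replication and mitotic genes, 1 and 1 passed, with medians of 0.48 and 0.57. Mcm5 was then at 0.88 and Cdc20 at 1.01, both past the threshold, and Stag3 (2.93), Zcwpw1 (2.32), Msh6 (0.85), Hat1 (0.95), Kif4 (1.07), Gins4 (0.81), Rpp25 (1.51), Rbp7 (1.83), Pvalb (-1.95), Clec2e (-2.38) and Spon2 (-1.86) passed as well. With the mean array intensity as a covariate, 108 genes passed, among them 12 replication genes and 6 mitotic genes, with medians of 0.60 and 0.76. The muscle level itself did not overlap between the groups. The part of muscle tissue in the other differences was not tested.

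**Figure D3:**
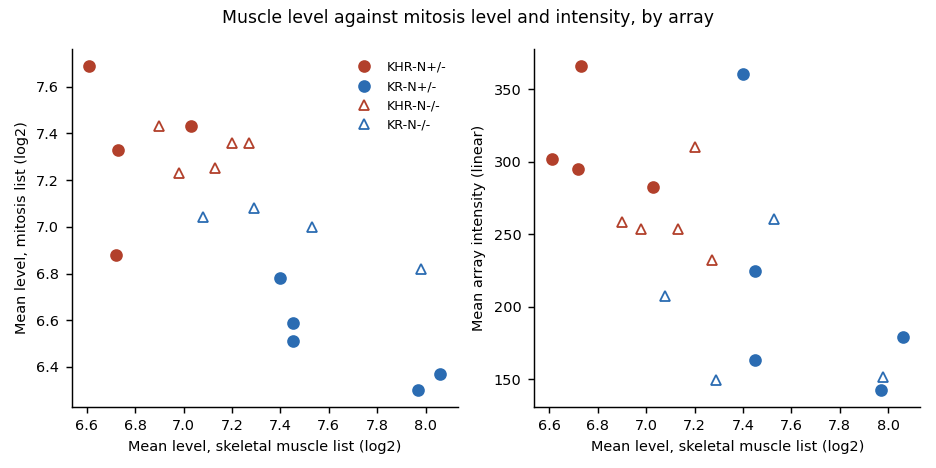
Each point is an array: the mean log2 level of the skeletal muscle list runs along the bottom, against the mean level of the mitosis list (left) and the mean array intensity (right). Filled circles are KHR-N+/- (red) and KR-N+/- (blue), and open triangles are the pairs without Notch1; all KR-N+/- arrays lie at 7.40 or more on the muscle axis and all KHR-N+/- arrays at 7.03 or less.

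Of 58 measured suprabasal and cornified genes, 2 passed upward and none downward, with a median of 0.05. That is 3.45% of the list, close to the 3.20% of all genes that passed upward. Ivl, involucrin of the cornified envelope, was at 10.46, 9.31, 10.47 and 8.76 in KHR-N+/- tumours, against 7.62, 8.31, 8.44, 8.38 and 8.07 in KR-N+/- tumours. The groups were apart, though KHR-N+/- replicate 4 came close to the highest KR-N+/- tumours, and the difference was 1.59 ± 0.34 (SE, adjusted p = 0.0062). Sprr2e, a small proline-rich envelope protein, differed by 1.33 and lost its call without KHR-N+/- replicate 1, in which it was 12.35 against 11.03 to 11.25 in the other 3. Of 27 kallikreins, serpins and other protease inhibitors, 2 passed upward (7.41%, against 3.20% over all genes), the stefins Stfa2 (1.88) and Cstdc4 (1.33). Both belong to a cluster of near-identical genes, so their probes may read several copies. Stfa2 did not pass without KHR-N+/- replicate 1 or 3 or KR-N+/- replicate 4, nor Cstdc4 without KHR-N+/- replicate 2 or 3 or KR-N+/- replicate 4. Spink7, a serine protease inhibitor of squamous epithelium, was at 8.97, 9.01, 9.16 and 8.35 in KHR-N+/- tumours, against 6.83, 7.59, 7.38, 6.55 and 7.12 in KR-N+/- tumours, a difference of 1.78 ± 0.32 (SE, adjusted p = 0.00165). In the list of stress keratins and alarmins 1 of 20 passed upward, the acute-phase gene Saa3, and 1 downward. Each was 5% of the list, against 3.20% upward and 2.37% downward over all genes. Saa3 differed by 1.32 and did not pass without KHR-N+/- replicate 1 or 3 or KR-N+/- replicate 1, 3 or 4. The lower gene was Wfdc12, an antimicrobial protease inhibitor, at 11.12 to 12.45 in KHR-N+/- and 12.89 to 13.03 in KR-N+/- tumours, a difference of -1.11 that did not pass without KHR-N+/- replicate 4. None of the 14 measured basal keratinocyte genes passed, against 5.57% of all genes. Itga6, the laminin-binding integrin of basal cells, came nearest with -0.81 (adjusted p = 0.0675), or 0.09 under median scaling.

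Hair keratin and hair shaft genes had the most negative median of the 41 measured lists, -1.01 over 26 genes, and none passed in the fit of all 5 groups. The count depends on the setting: 5 passed downward in a fit of only these groups, 5 without KR-N+/- replicate 2, 12 with array weights, 18 with scaling over detected probes and 1 with the Xist covariate. Of all 9732 genes, these settings in the same order called 227, 339, 501, 3003 and 191 lower. The 18 thus came from a setting that moved many genes down. The values of the hair genes spread widely within groups. Krt71, a keratin of the inner root sheath, was at 7.61, 6.76, 6.25 and 5.66 in KHR-N+/- tumours, against 8.74, 7.26, 8.38, 9.25 and 8.32 in KR-N+/- tumours, and replicate 1 of KHR-N+/- lay above replicate 2 of KR-N+/-. The difference of -1.82 (adjusted p = 0.0792) became 0.15 with the muscle level as a covariate, where the list's median was 0.34. Among 25 lipid barrier and sebaceous genes, 4 passed downward (16%, against 2.37% over all genes) and none upward, with a median of -0.14. Fa2h, which hydroxylates fatty acids for barrier lipids, differed by -1.61 and lost its call without KHR-N+/- replicate 3. The elongases Elovl3 and Elovl6 differed by -0.87 and -0.55 and the lipoxygenase Alox12 by -0.76, and Elovl6 and Alox12 had the opposite sign under median scaling. Alox12 did not pass without KHR-N+/- replicate 1, 3 or 4 or KR-N+/- replicate 1 or 5, nor Elovl6 without KHR-N+/- replicate 2, 3 or 4 or KR-N+/- replicate 2 or 4.

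**Figure D4:**
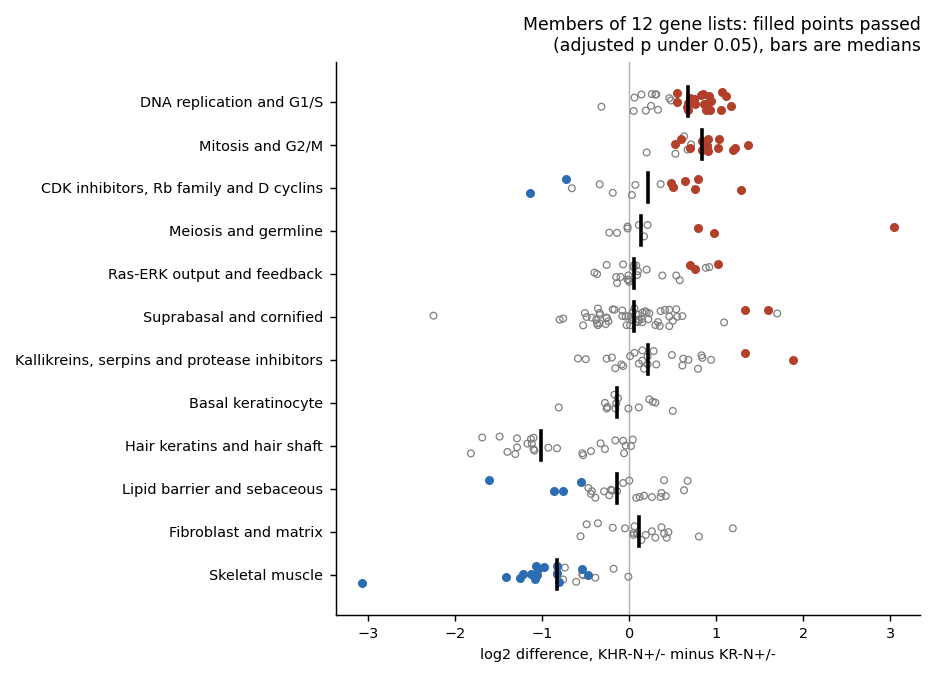
Log2 difference, KHR-N+/- minus KR-N+/-, of each measured member of 12 gene lists. Filled points passed at an adjusted p under 0.05, red for higher and blue for lower in KHR-N+/- tumours, and black bars mark list medians, from 0.84 for mitosis to -1.01 for hair keratins.

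Signalling genes gave few calls. Of 25 measured genes of Ras-ERK output and feedback, 3 passed upward and none downward, with a median of 0.05. Hbegf, a ligand of the EGF receptor, was at 9.55, 9.42, 8.71 and 9.30 in KHR-N+/- tumours, against 8.16, 8.32, 8.42, 7.81 and 8.42 in KR-N+/- tumours, a difference of 1.02 ± 0.24 (SE, adjusted p = 0.0118) between groups that did not overlap. The early response gene Ier3 was higher by 0.70 and Fosl1, a partner in the AP-1 factor, by 0.75. With the array intensity as a covariate none of the 3 passed. Of 30 Wnt genes only Wnt7b, a ligand made by keratinocytes, passed, at -0.95, with 0.02 under median scaling and -0.22 at its second probe. None of 31 genes of the TGF-beta, BMP and activin list and none of 9 Hox genes passed, with medians of 0.02 and 0.03. Among 33 epithelial lineage transcription factors only Sox21, which acts in hair and tooth epithelium, passed, at -0.92, with 0.08 under median scaling and -0.16 at its second probe. Of 16 clock genes, the activator Arntl was higher by 0.76, and the outputs Nr1d1 and Dbp differed by -0.61 and -1.0, which became 0.17 and 0.00 under median scaling. The second probe of Nr1d1 gave -0.14. The sugar enzyme Hk2 and the kinase Pdk1 were the 2 of 25 glycolysis and hypoxia genes that passed, by 0.72 and 0.38. Of 41 respiratory chain genes, Ndufa4, a cytochrome oxidase subunit, alone passed, by 0.49. In the redox list of 35 genes, the peroxidase Prdx4 was higher by 0.97 and the selenoenzyme Gpx3 by 0.89, and the epithelial form Gpx2 differed by -0.87. Rbp7, which binds retinol, was the 1 of 17 retinoid genes that passed, at 7.54 ± 0.37 in KHR-N+/- and 6.30 ± 0.34 in KR-N+/- tumours (SD, n = 4 and 5). The Wnt, lineage factor, respiratory chain and retinoid lists, with 1 call each, had 2.44% to 5.88% of their members called, against 5.57% of all genes. The other lists with calls had higher shares. Upward, these were 12% for Ras-ERK, 8% for glycolysis and hypoxia, 5.71% for redox and 6.25% for clock genes, against 3.20% of all genes. Downward, they were 2.86% for redox and 12.5% for clock genes, against 2.37% of all genes. Many of these calls needed several arrays to stay. Hk2 and Arntl did not pass without KHR-N+/- replicate 3, nor Ndufa4 without that array or KR-N+/- replicate 4. Gpx2 was lost without KHR-N+/- replicate 1 or 3 or KR-N+/- replicate 4, and Sox21 without KHR-N+/- replicate 2 or 3 or KR-N+/- replicate 4. Fosl1 was lost without KHR-N+/- replicate 1, 2 or 3 or KR-N+/- replicate 1, 3 or 4, and Dbp without KHR-N+/- replicate 2, 3 or 4 or KR-N+/- replicate 1, 3 or 4. Nr1d1 was lost without KHR-N+/- replicate 3 or 4 or KR-N+/- replicate 1, 4 or 5, Pdk1 without any KHR-N+/- array or KR-N+/- replicate 3, 4 or 5, and Gpx3 without any array but KHR-N+/- replicate 1.

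Immune and stromal markers gave few calls, which with 4 and 5 tumours does not show that their levels were equal. No gene passed among 20 interferon response, 20 MHC class I, 10 MHC class II, 13 macrophage, 16 T and NK cell, 5 dendritic cell, 8 mast cell, 18 endothelial, 20 fibroblast and matrix, 5 adipocyte or 3 nerve genes. At the 5.57% of all genes that passed, lists of this size would hold few calls or none. No B or plasma cell gene was measured above the detection filter. Their medians ran from -0.31 for adipocyte genes to 0.19 for nerve genes. The mean fibroblast and matrix level was 6.22 to 6.75 in KHR-N+/- tumours and 6.29 to 6.59 in KR-N+/- tumours. Within it Col1a1, a chain of type I collagen, had a difference of 1.19 and the proteoglycan Dcn one of -0.56, neither passing (adjusted p = 0.12 and 0.134). Of 6 neutrophil genes, 2 passed upward, the chemoattractant receptors Fpr2 (1.05) and Cxcr2 (0.84), each with groups that did not overlap, and none downward, against 3.20% upward over all genes. The list's median was 0.48, and of its other members Retnlg and Csf3r differed by 0.70 and 0.26, and Elane and Ltf, which encodes lactoferrin, by -0.12 and -1.17, none passing. Of 36 chemokines and cytokines, Cxcl16 was higher by 0.50 and Ccl11, eotaxin, differed by -0.63. Each was 2.78% of the list, against 3.20% upward and 2.37% downward over all genes. The largest difference of that list, -2.32 for Ppbp, did not pass. Ppbp was at 4.69 to 7.65 in KHR-N+/- and 6.74 to 10.18 in KR-N+/- tumours. Cxcr2 was lost without KHR-N+/- replicate 1 or 4 or KR-N+/- replicate 1, 3 or 4, Cxcl16 without KHR-N+/- replicate 1, 2 or 4 or KR-N+/- replicate 1, 3 or 4, and Ccl11 without KHR-N+/- replicate 2, 3 or 4 or KR-N+/- replicate 2 or 5. Aqp5, a water channel, was the 1 of 3 salivary gland genes that passed, or 33.3%, against 3.20% upward over all genes. It was at 8.15 to 8.98 in KHR-N+/- and 7.15 to 7.64 in KR-N+/- tumours, and its second probe gave 1.03.

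Other large differences were mostly in genes of no list. Nes, the intermediate filament nestin of progenitor cells, was at 6.03, 7.01, 6.56 and 7.38 in KHR-N+/- tumours, against 4.30, 5.00, 5.23, 4.32 and 4.42 in KR-N+/- tumours. The groups were apart, with a difference of 2.09 ± 0.32 (SE, adjusted p = 0.000421) and 0.89 at a second probe. Prmt1, the main arginine methyltransferase, was at 10.03, 10.61, 10.45 and 10.79 in KHR-N+/- tumours, against 8.85, 9.18, 9.13, 8.75 and 9.26 in KR-N+/- tumours. The heart and stress peptide gene Nppb was higher by 1.39 and Rpp25, a subunit of RNase P, by 1.30, and Nppb did not pass without KHR-N+/- replicate 1. The stromelysin Mmp3 was higher by 1.35, with 0.62 and 1.46 at its other probes. It was the 1 of 26 matrix protease genes that passed, or 3.85%, close to the 3.20% upward over all genes. It lost its call without KR-N+/- replicate 1 or KHR-N+/- replicate 3, where it was 8.63 against 7.31 to 7.45 in the other 3. On the lower side, Slitrk5, a membrane protein of neurons, was at 4.43, 4.81, 5.67 and 4.70 in KHR-N+/- tumours, against 6.67, 6.79, 6.70, 6.09 and 6.82 in KR-N+/- tumours. Spon2, a secreted matrix protein, was at 6.51, 7.24, 7.31 and 7.67 in KHR-N+/- tumours, against 8.69, 8.62, 8.71, 8.82 and 9.33 in KR-N+/- tumours. Clec2e, a lectin-like surface protein, differed by -1.69 at its brightest probe and 0.02 at the other. Serpinb6d differed by -1.77, and H2ac18, a histone with near-identical copies, by -1.33. Acta2, smooth muscle actin, differed by -1.30, with -0.32, -0.38 and -1.04 at its other probes. It was the 1 of 18 genes of the epithelial-mesenchymal list that passed, or 5.56%, against 2.37% downward over all genes. It lost its call without KHR-N+/- replicate 1 or 3 or KR-N+/- replicate 3, 4 or 5.

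The same contrast was made in tumours with no Notch1 copy, on arrays that the first comparison does not use, though both share 1 estimate of the spread. Between KHR-N-/- and KR-N-/- tumours 1247 genes passed (12.8%), 614 higher (6.31%) and 633 lower (6.50%). Of the 542 genes, 513 (94.6%) had the same sign there, against 69.3% of all genes. In both comparisons 139 genes were higher and 112 lower, together 46.3% of the first set and 20.1% of the second, and 0 went opposite ways. Stag3 averaged 7.50 in KHR-N-/- and 4.57 in KR-N-/- tumours, and 7.16 in KHR tumours with intact Notch1. Zcwpw1 averaged 6.58 in KHR-N-/- and 4.63 in KR-N-/- tumours, and Spink7 8.85 in KHR-N-/- and 7.07 in KR-N-/- tumours. Lower were Pvalb, at 5.43 in KHR-N-/- and 7.93 in KR-N-/- tumours, and Slitrk5, at 6.53 in KHR-N-/- and 8.74 in KR-N-/- tumours. Each of these 5 passed there too. The replication list gave 6 genes higher and 1 lower with a median of 0.20, the mitosis list 6 and 0 with 0.24, and the muscle list 0 and 3 with -0.30. For these 3 lists the median was nearer to 0 than with 1 copy, and for others it was farther. Kallikreins and protease inhibitors had 9 genes higher with a median of 0.65, suprabasal genes 11 with 0.30, and stress keratins and alarmins 7 with 0.40, against 0.18 with 1 copy. These differences between the pairs were not tested for the lists.

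Whether the tumour-type difference itself changed with the Notch1 copy was tested as an interaction. None of the 9732 genes passed limma's test (0%), against 1 with the authors' processed values. At an unadjusted p under 0.05 there were 793, and the lowest adjusted p was 0.334. The smallest unadjusted p belonged to Mcm5, whose difference was 1.11 with 1 copy and 0.34 with none. Prmt1 differed by 1.44 with 1 copy and -0.25 with none, since it averaged 10.39 in KHR-N-/- and 10.64 in KR-N-/- tumours. The linker histone H1f10 differed by 0.49 and -0.63. These values are given as they stand, since none passed the correction.

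**Figure D5:**
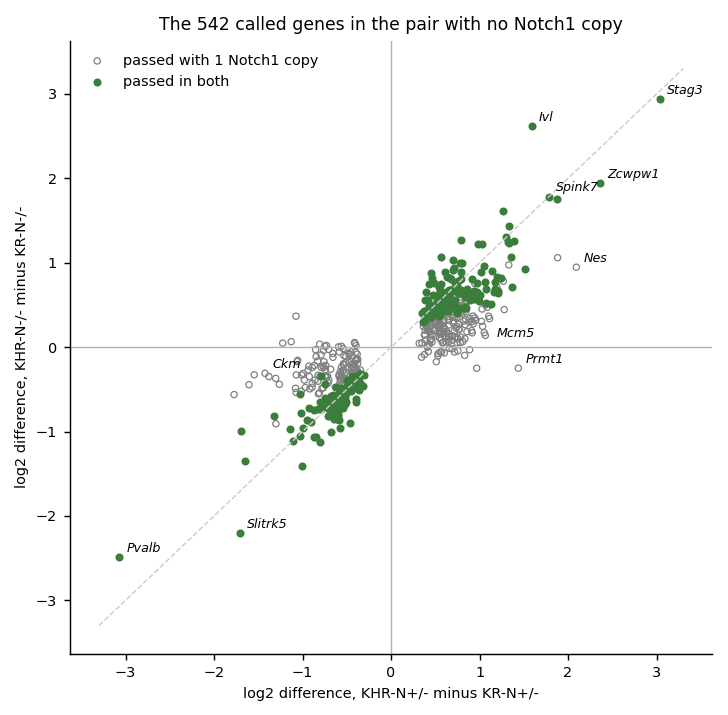
Each point is 1 of the 542 genes that passed with 1 Notch1 copy: its log2 difference KHR-N+/- minus KR-N+/- (horizontal) against KHR-N-/- minus KR-N-/- (vertical). Filled points, 251 in all, passed in both, and the dashed line marks equal differences; Stag3, Zcwpw1 and Pvalb lie near it, and Prmt1 lies below 0 on the vertical axis.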

How the data were processed

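The authors deposited, per the file headers, a scanner table with a mean bead intensity and a detection p-value for each probe on each array, with bead numbers, and a table of their own processed intensity, which served only as an alternative. Its scale is linear from its values (column medians 4.44 to 4.55, 26.6% below 0, ranks as the scanner's), and its centring is unstated. Per the submitters' processing notes, GenomeStudio and Partek were used. A further 23 bead standard error columns were not used. The scanner intensities were corrected with normexp using the detection p-values (offset 16), logged and quantile normalised in limma 3.58.1 (R 4.3.3). A probe was kept if 4 or more arrays detected it (p-value under 0.05), and the brightest such probe stood for its gene. Platform annotation gave 1 symbol to 23978 of 25697 probes, several to 0 and none to 1719. One linear model held all 23 arrays in 5 groups, which share the spread, with eBayes moderation and Benjamini-Hochberg adjustment over 9732 genes. The fit was tested on simulated data. The number of arrays limits the precision. The header of 1 array reads KR-N where its title gives KR-N+/-; it was mapped by its number.

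Named genes were Notch1, the 15 largest rises and 15 largest falls among genes that passed with groups apart, the 6 smallest p-values beyond those, up to 5 per list (2 to 3 where none passed), and up to 6 by interaction; some of these are counted but not described. Foxm1 and Prc1, as the ends of a range, and Ppbp, as the largest difference of its list, were named after their values were seen. So were Retnlg, Csf3r, Elane and Ltf, as the rest of their list. The 42 gene lists (27 pathway lists, 14 cell type lists and 1 sex-linked list, 810 genes measured) and the members were chosen with earlier results of these data known. Alternatives tried were 14 settings and leaving out each array.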

Additional observations from a re-analysis of the deposited data

Results flagged for a closer look

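Within a group of 4 or 5 tumours, 1 value stood far from the others, by Dixon's criterion, in 10 of the value sets tested. Chance flags about 1 in 20 such sets, and the share found here was 5.32%. In KHR-N+/- tumours, Sprr2e was at 12.35 in replicate 1 (others 11.03 to 11.25) and Mmp3 at 8.63 in replicate 3 (others 7.31 to 7.45). Rpl3l was at 5.66 in replicate 4 (others 6.17 to 6.25). The Y-linked gene Kdm5d was at 4.68 in replicate 3 (others 4.14 to 4.21), the array with the lowest Xist level of that group, 4.26. In KR-N+/- replicates 1 to 5, Kdm5d was at 5.52, 4.87, 4.16, 4.85 and 4.10. The lower levels of Kdm5d and Xist lie near background. In KR-N+/- tumours, Msh6 was at 8.26 in replicate 4 (others 8.07 to 8.08), Slitrk5 at 6.09 in replicate 4 (others 6.67 to 6.82), Spon2 at 9.33 in replicate 5 (others 8.62 to 8.82), Ccne1 at 4.78 in replicate 1 (others 5.16 to 5.31), Top2a at 7.43 in replicate 2 (others 6.69 to 6.86) and Tnfrsf10b at 6.37 in replicate 2 (others 7.25 to 7.55). Replicate 2 of KR-N+/- was also the array of that group with the highest intensity, 360.4.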

How the results depend on the processing

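For KHR-N+/- against KR-N+/-, where 542 genes passed, no background correction gave 542, the authors' processed values 405, no filter on dim probes 434, a detection p-value under 0.01 gave 569, the mean of a gene's probes 518, a fit of only these groups 523, and trend and robust settings 524. Array weights gave 1080, median scaling 4550, median scaling over probes detected on every array 3348, the intensity covariate 108, the muscle covariate 21 and the replicate block 219. Leaving out 1 array gave 307 (without KHR-N+/- replicate 3) to 793 (without KR-N+/- replicate 2). It gave 354 without KHR-N+/- replicate 2 and 314 without KR-N+/- replicate 4. The settings with the Xist level and with scaling over detected probes were chosen after seeing the data. For KHR-N-/- against KR-N-/-, with 1247 genes, median scaling gave 286, a fit of only these groups 2102, array weights 2265, the intensity covariate 334, the muscle covariate 520, the replicate block 745, and leaving out 1 array 686 to 1181. For the interaction, with 0 genes, the authors' values gave 1, the replicate block 2, and leaving out 1 array 0 to 1. The cause of these changes was not tested. Deviations of same-numbered KHR-N+/- and KR-N+/- replicates correlated at -0.0401 to 0.124, and 4 of 8 arrays correlated best with their own number. These values do not settle whether the numbers pair arrays, so the block stayed an alternative. Bead numbers per probe did move with the number, at 27 to 30.5 on arrays numbered 1 and 38 to 40.4 on those numbered 4 or 5 in all 5 groups. Bead numbers also followed the sample order of the series. Along it they fell in successive ranges, 27 to 30.7, 31 to 36.3 and 38 to 40.4, that did not overlap. Arrays numbered 2 spanned 27 to 36.3, and those numbered 3 spanned 31 to 39.2. In the sample order KR-N+/- replicate 2 (30.7) comes early, with KR-N+/- replicate 1 (29.2) and KHR-N+/- replicate 1 (30.5). KHR-N+/- replicate 2 (32.1) comes later, with KR-N+/- replicate 3 (33.1). A block by number may therefore join arrays of different runs, and no fit used the sample order. Whether the number or the order marks a shared run was not tested. With the replicate number as a block the fit has 10 residual degrees of freedom, and 214 of its 219 genes were among the 542 with the same direction. Of the 81 named genes that passed, 11 passed under all 14 settings (Stag3, Zcwpw1, Pvalb, Cdc20, Mcm5, Hat1, Msh6, Kif4, Gins4, Rpp25 and Rbp7) and 51 in every fit without 1 array. Signs turned under median scaling, whose shift of all genes was 0.647, for Cdkn2b (0.27), Sesn1 (0.07), Tnfrsf10b (0.12), Hes1 (0.60), Wnt7b (0.02), Sox21 (0.08), Alox12 (0.25), Elovl6 (0.41), Nr1d1 (0.17), Dbp (0.00), Itga6 (0.09) and Dcn (0.37). With the muscle covariate they turned for Krt71 (0.15), Dcn (0.15) and Tnni2 (0.01), and over detected probes for Xist (-0.24). Tnni2 and Pvalb belong to the list that the muscle covariate averages, so that setting adjusts them partly for themselves. Signal near background limits Stag3, Zcwpw1, Nes, Smc1b, Piwil2, Cdkn2a and Myh4 in the group where they were low. It also limits other dim genes, among them Fpr2, Cxcr2, Rpp25, Serpinb6d and Elovl3. Without background correction and on the authors' processed values, Fpr2 differed by 0.35 and 3.00, Cxcr2 by 0.27 and 2.57, and Rpp25 by 0.48 and 2.90. Under the same settings Serpinb6d differed by -0.76 and -3.13, and Elovl3 by -0.29 and -2.40.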
